A study of Mus musculus with 4 samples.

Results

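Crym, Thra, Thrb, Dio2, Klf9 and Hr are 6 genes of thyroid hormone handling, listed by name out of the 31053 genes counted in the series, and all 6 were found in the count matrices. Single cells had been taken from the ventromedial prefrontal cortex of male C57BL/6 mice that were 8 weeks old at injection. Every mouse carried rAAV2-retro viruses with EGFP and a barcode, a different barcode for the agranular insula, the dorsomedial striatum, the mediodorsal part of the thalamus, the basolateral amygdala and the lateral hypothalamus, so there was no uninjected control. Unsorted cells came from 3 mice, with 1 library for each mouse, and sorted cells from 1 library in which EGFP-positive cells of 3 mice were pooled. UMIs (unique molecular identifiers, each standing for 1 captured transcript) were summed for each library over the 9368 excitatory neurons of the deposited metadata, by the authors' 7 subtypes, and given as CPM, the gene's UMIs scaled by all UMIs of the sum. Within a subtype, barcode-high neurons (5 or more UMIs of the viral barcode feature) were set against barcode-zero neurons (0 UMIs). A total of 568 astrocytes (cells outside that metadata with 3 or more Aqp4 and Gja1 UMIs in all) served for comparison.

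Thyroxine (T4) reaches the brain through membrane transporters and is converted to the active hormone T3 by the deiodinase encoded by Dio2, an enzyme known mainly from astrocytes and tanycytes. T3 then acts in the nucleus on the receptors encoded by Thra and Thrb, which recruit corepressors without hormone and coactivators with it. Crym encodes mu-crystallin, a cytosolic protein that binds T3 and is abundant in parts of the cerebral cortex. Klf9 and Hr are genes known to be induced by T3, and Klf9 is also induced by glucocorticoids. Thra gives rise to a splice form that does not bind T3, and counts summed per gene, as used here, do not separate splice forms.

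On the GRCm38 assembly with the GENCODE annotation, all 6 are protein-coding genes. Crym (ENSMUSG00000030905) lies on chromosome 7 at 120186380 to 120202111 on the minus strand. Thra (ENSMUSG00000058756) lies on chromosome 11 at 98740638 to 98769006 on the plus strand, and Thrb (ENSMUSG00000021779) on chromosome 14 at 17660261 to 18038090 on the plus strand. Dio2 (ENSMUSG00000007682) lies on chromosome 12 at 90724552 to 90738438 on the minus strand. Klf9 (ENSMUSG00000033863) lies on chromosome 19 at 23141226 to 23168134, and Hr (ENSMUSG00000022096) on chromosome 14 at 70552212 to 70573548, both on the plus strand. The 3′ end of Thra overlaps Nr1d1, a gene of the opposite strand, by 1075 bases, and exons of Dio2 overlap the opposite-strand gene Gm26512. Whether the authors' counting used strand is not given in the sources used here.

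RefSeq promoter windows (GRCm38.p6, 250 bases before to 50 bases after a start) were found for Thrb, Dio2 and Klf9, with 2 starts for Thrb. They were searched on both strands for the nuclear receptor half-site AGGTCA, for its direct repeat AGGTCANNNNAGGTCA, the arrangement known as a T3 response element, and for the cAMP response element TGACGTCA, since Dio2 is known as a cAMP-induced gene. The half-site was in 1 of the 4 windows, the upstream start of Thrb, and 16.3% of the 32851 promoter windows hold it. The cAMP element was in the Dio2 window, and 1.79% of all windows hold it. The direct repeat was in none of the 4, and 0.0152% of all windows hold it. The sequences below are shown because they carry these motifs, in capitals, and each is 30 bases long on the strand of its gene. The Thrb stretch is chr14:17660764-17660793 on the plus strand, with the motif starting 184 bases before the start, and the Dio2 stretch is chr12:90739115-90739144 on the minus strand, with the motif starting 95 bases before it. A match is a description of the letters and was not tested for binding.
Thrb: aggagagttgacAGGTCAagggaatagggc
Dio2: ctctttctcaaTGACGTCAagatctttagc

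The 4 libraries held 54728191 to 87809114 UMIs and 2075 to 8040 cell barcodes. Neurons numbered 2816, 2486 and 2463 in unsorted replicates 1 to 3 and 1603 in the sorted library, with median depths of 21343.5 to 23213 UMIs (unsorted) and 31669 UMIs (sorted). Astrocytes numbered 187, 175 and 206 in unsorted replicates 1 to 3, with 0 among sorted cells, and were shallower, with medians of 3504.5 to 3560 UMIs. The gene in each subtype's name was highest in its own subtype in 7 of 7 cases. The authors labelled the subtypes by marker genes in these same cells, so this is no independent check of the labels. Libraries shared 5 to 30 cell barcodes per pair, of which 0 to 4 were neurons in both. The sorted library differs from the others in sort, animals and depth at the same time, and these cannot be told apart.

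Crym was the member that varied most among subtypes with more than trace levels, with an 8.29-fold range between the highest and lowest means. It was highest in L6-Syt6, a layer 6 subtype, with 488, 485 and 484 CPM in unsorted replicates 1 to 3 and 504 CPM in the sorted library. L5-Bcl6 followed with 389 ± 30.1 CPM (SD, n = 3 unsorted libraries) and L5-Htr2c with 254 ± 19.6 CPM. The middle position was held by L2/3-Rorb at 160 ± 15.1 CPM. Low levels were seen in L5-S100b (84.6 ± 4.30 CPM) and L2/3-Calb1 (82.3 ± 7.46 CPM), whose library values overlapped, and L6-Npy was lowest at 58.5 ± 5.60 CPM. The other neighbours in this order did not overlap among the unsorted libraries. Both layer 6 subtypes thus stood at opposite ends of the Crym range. After thinning each cell to 10000 UMIs, at least 1 Crym UMI was found in 95.5% ± 0.155 of L6-Syt6 neurons and in 31.7% ± 1.66 of L6-Npy neurons (SD, n = 3). In astrocytes of the same libraries with no UMI of Slc17a7, C1qa, Cldn5 or Mog, thinned to 2000 UMIs, 0.787% to 2.16% of cells had a Crym UMI, against 39.9% to 42.6% of all neurons thinned likewise. Subtypes had been clustered from these same cells, so subtype levels are a description and carry no test.

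The T3 receptor genes did not follow Crym. Thra was highest in L6-Npy, where Crym was lowest, with 983 ± 13.3 CPM (SD, n = 3). L2/3-Calb1 came next at 893 ± 31.0 CPM, and L5-Htr2c, L6-Syt6 and L5-Bcl6 lay close together at 665 ± 6.32, 652 ± 3.44 and 646 ± 13.3 CPM. L6-Syt6 and L5-Bcl6 overlapped. L5-S100b had 518 ± 8.54 CPM and L2/3-Rorb the lowest level, 380 ± 0.838 CPM, so the range was 2.59-fold. Thrb had an order of its own. It was highest in L5-Htr2c at 221 ± 1.17 CPM, followed by L2/3-Rorb at 184 ± 7.27 CPM. L5-S100b (161 ± 6.89 CPM) and L5-Bcl6 (159 ± 5.74 CPM) overlapped, L2/3-Calb1 had 93.9 ± 5.13 CPM, and L6-Syt6 (74.2 ± 1.60 CPM) and L6-Npy (65.7 ± 6.38 CPM) overlapped at the bottom. The 7 subtype means of Thra and Thrb had a Pearson r of -0.67 on the log2(CPM + 1) scale. Crym had r of -0.30 with Thra and 0.24 with Thrb. These 7 points share the same 3 libraries and their totals, and the values describe them only.

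Of the T3-responsive members, Klf9 stood apart in L6-Syt6, with 288, 293 and 294 CPM in unsorted replicates 1 to 3 against 192 ± 9.91 CPM in L6-Npy, the next subtype. L6-Npy, L5-S100b, L2/3-Rorb, L2/3-Calb1 and L5-Bcl6 formed a run of means from 192 to 173 CPM in which each overlapped the next. L5-Htr2c, with the highest Thrb, had the lowest Klf9, at 107 ± 6.57 CPM, and the Pearson r of Klf9 with Thrb over the 7 subtype means was -0.69. Hr, a corepressor of nuclear receptors, was near the detection limit, with 137 UMIs in all 7765 unsorted neurons. Its highest level was 2.17 ± 0.341 CPM in L2/3-Rorb, above the 1.19 ± 0.108 CPM of L5-S100b in every unsorted library. Dio2 gave 22 UMIs in the unsorted neurons and 1 UMI in the sorted ones, with no subtype above 0.698 CPM in any library.

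**Figure D1:**
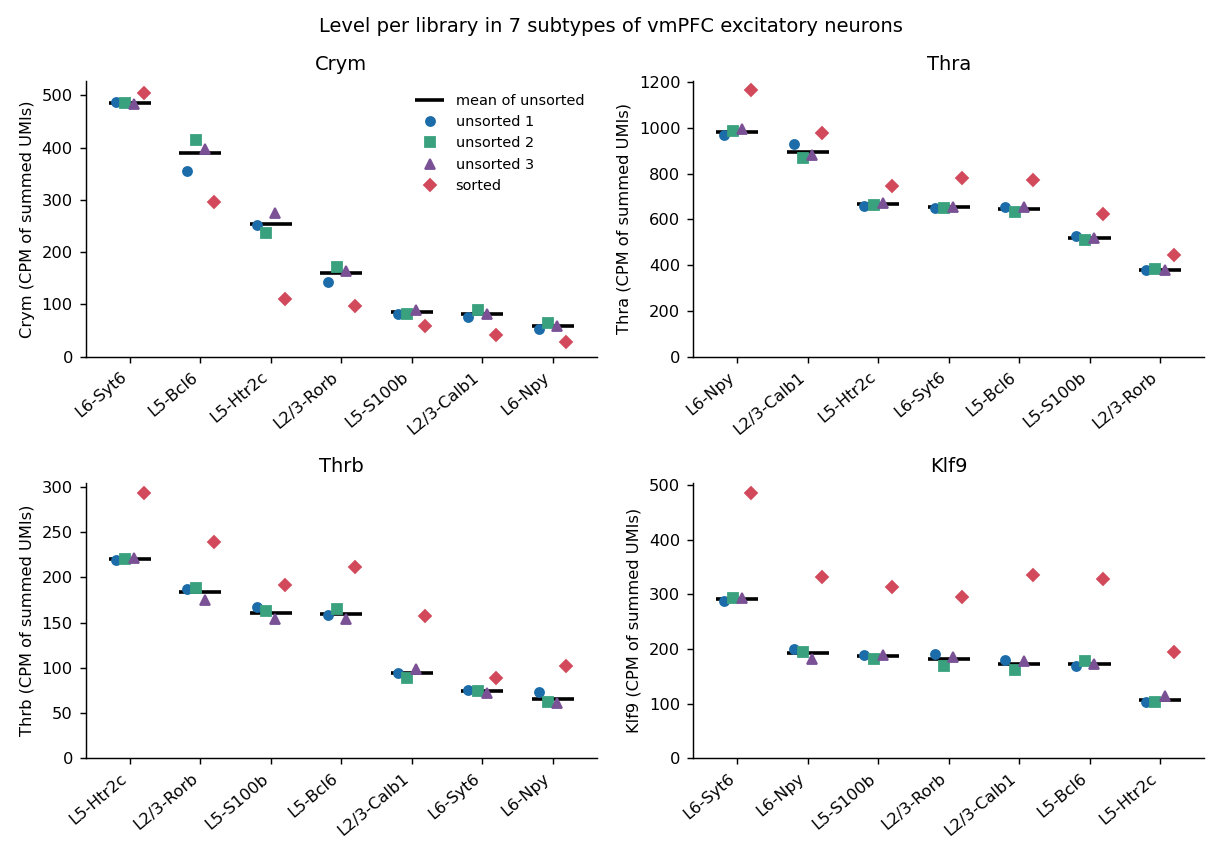
Level of Crym, Thra, Thrb and Klf9 (vertical axis, CPM of summed UMIs) in the 7 subtypes, ordered by the mean of the unsorted libraries (black line), with 1 point for each library. Crym runs from 486 CPM in L6-Syt6 to 58.5 CPM in L6-Npy, Thra is highest in L6-Npy at 983 CPM, and the sorted library (red diamonds) lies above the unsorted ones for Thra, Thrb and Klf9 in 7 of 7 subtypes.

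Over the 7 subtype means, the genes most like each member were named among 8159 genes with at least 20 CPM in some subtype. For Crym they were Zfpm2, which encodes a GATA cofactor (Pearson r 0.96, 79.3 CPM in L6-Syt6 and 6.18 CPM in L6-Npy), Ccl27a, a chemokine gene (0.96), and Ckmt1, the mitochondrial creatine kinase gene (0.95). For Thra they were the syndecan gene Sdc2, Cys1 and the adenylyl cyclase gene Adcy9, each with r of 0.96. For Thrb they were 1700025G04Rik, the histone chaperone gene Hira and the POU factor gene Pou6f1, each with r of 0.98. For Klf9 they were Stxbp5 (0.99), the annexin gene Anxa6 (0.97) and Cnnm4 (0.95). With 7 points and this many genes, high values of r arise readily, and no p is given.

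The next question was whether the members differ between neurons of the same subtype with many and with no barcode transcripts, that is, between neurons more and less likely to project to an injected target. A barcode-zero neuron can still project there, since uptake and capture are incomplete. In the sorted library all cells had been sorted for EGFP, which the same viruses carry. Its barcode-zero neurons are thus not the same kind of group as those of the unsorted libraries. Sums of raw counts were tested with edgeR's quasi-likelihood F test with the library as a block, and p-values were Benjamini-Hochberg adjusted over all genes tested. A gene passed at an adjusted p under 0.05. Dio2 and Hr were too low to be tested in neurons, so 4 of 6 members were tested in each of 6 subtypes. L5-Htr2c had only 2 to 4 barcode-high neurons per library and was not tested. There the barcode-high Crym sums were 7 to 30 UMIs, and Crym was at 239 to 270 CPM in the 80 to 108 barcode-zero neurons of each unsorted library.

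In L6-Syt6, barcode-high neurons had more Crym and less Thrb. Crym was 539, 551 and 552 CPM in barcode-high neurons of unsorted replicates 1 to 3 and 599 CPM in the sorted library. In barcode-zero neurons it was 466, 463, 458 and 340 CPM. It was higher in 4 of 4 libraries, and no barcode-zero value reached a barcode-high one. The fitted log2 difference was 0.42 (SE 0.10, adjusted p = 0.0363). Thrb was 67.2, 57.7, 57.6 and 70.4 CPM in barcode-high neurons against 81.9, 84.8, 83.7 and 126 CPM in barcode-zero neurons. It was lower in 4 of 4 libraries with no overlap, and the fitted log2 difference was -0.49 (SE 0.07, adjusted p = 0.00633). These were 2 of 4 tested members, where 7.28% of the 13030 genes tested passed. Thra (log2 difference 0.05, SE 0.05, adjusted p = 0.551) and Klf9 (0.07, SE 0.05, adjusted p = 0.405) did not pass, with normal 95% intervals of -0.04 to 0.15 and -0.02 to 0.16.

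Both L6-Syt6 calls leaned on how the libraries were combined. The sorted library had the largest differences for both genes, and without it the values were smaller and far more precise, at 0.27 for Crym (SE 0.02, adjusted p = 1.36e-21) and -0.42 for Thrb (SE 0.04, adjusted p = 9.61e-13), with 2748 genes passing in place of 948 and Klf9 at 0.08 (adjusted p = 0.00591, in a range of 0.00591 to 0.947 over 10 alternatives). Leaving out unsorted replicate 1, 2 or 3 ended the Crym call (adjusted p = 0.110, 0.143 and 0.109), and leaving out replicate 2 or 3 ended that of Thrb (0.0943 and 0.0559), with log2 values of 0.47 to 0.49 for Crym and -0.59 to -0.49 for Thrb. Without the library block, adjusted p was 0.233 for Crym and 0.0894 for Thrb. Barcode-high L6-Syt6 neurons were deeper, so the counts were also thinned to 10000 UMIs per cell, which gave 0.40 for Crym (adjusted p = 0.0156) and -0.49 for Thrb (adjusted p = 0.00223). The barcode groups were still those set before thinning, so depth can still have a part in which neurons count as barcode-high. Over 10 alternatives, adjusted p ran from 1.36e-21 to 0.233 for Crym and from 9.61e-13 to 0.0943 for Thrb.

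**Figure D2:**
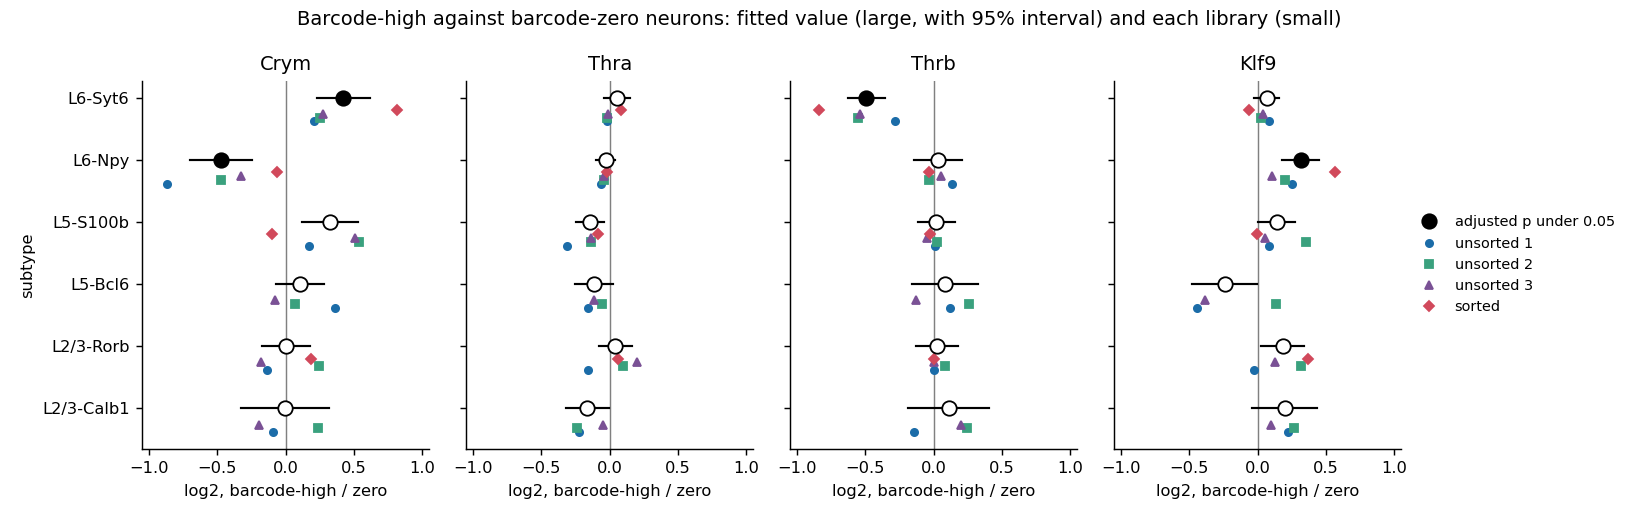
Log2 ratio of barcode-high to barcode-zero neurons (horizontal axis) for 4 members in 6 subtypes, with the fitted value and its normal 95% interval (large circle and bar, filled where the adjusted p is under 0.05) above the plain CPM ratio of each library (small symbols). Crym is right of 0 in 4 of 4 libraries in L6-Syt6 and left of 0 in 4 of 4 in L6-Npy, and Thrb is left of 0 in 4 of 4 in L6-Syt6.

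Splitting L6-Syt6 neurons more finely by barcode UMIs, in bins chosen after the data were seen, showed where the differences lay. In unsorted replicates 1 to 3, Crym was 466, 463 and 458 CPM at 0 barcode UMIs and 461, 439 and 450 CPM at 1 to 4. It stood at 526, 537 and 545 CPM at 5 to 19 and at 570, 596 and 566 CPM at 20 or more. The sorted library went from 340 and 347 CPM in the lower bins to 572 and 648 CPM in the upper ones. Crym therefore differed between the upper and lower bins, and neurons with 1 to 4 barcode UMIs resembled those with 0. Thrb was already lower at 1 to 4 barcode UMIs, with 73.1, 73.9 and 66.2 CPM in the unsorted libraries and 116 CPM in the sorted one. At 20 or more it was 67.1, 51.6, 58.7 and 60.1 CPM. Median depth, in the same order of libraries, was 21684, 21786, 23159 and 30096.5 UMIs at 0 and 21411, 22123, 23073 and 31455 UMIs at 1 to 4. It was 24007, 25051.5, 25463 and 37837 UMIs at 5 to 19 and 25652.5, 25888, 27154 and 40033 UMIs at 20 or more. Counting neurons with 1 or more barcode UMIs as positive gave a Crym log2 difference of 0.28 (adjusted p = 0.214).

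**Figure D3:**
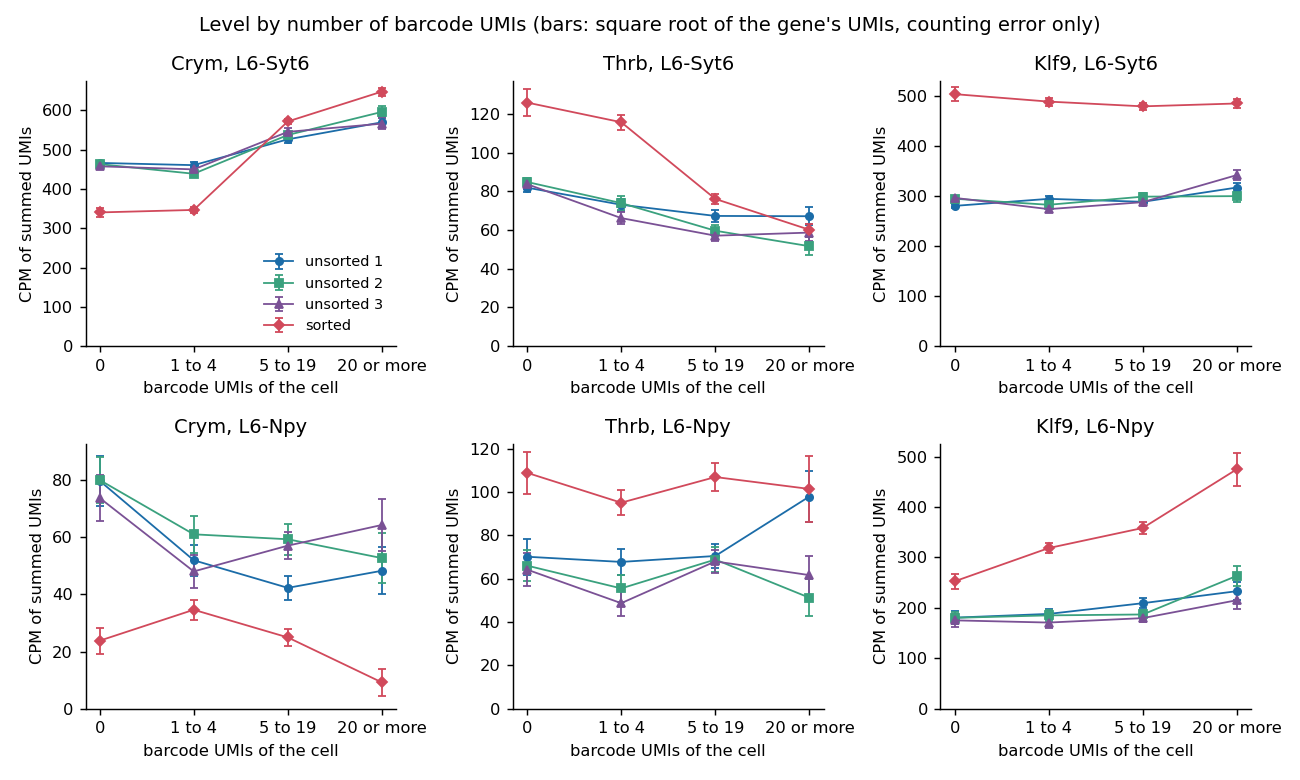
Level of Crym, Thrb and Klf9 (vertical axis, CPM of summed UMIs) in L6-Syt6 (top) and L6-Npy (bottom) neurons by the number of barcode UMIs in the cell (horizontal axis), 1 line for each library, with bars for counting error only. In L6-Syt6, Crym is flat from 0 to 1 to 4 barcode UMIs and reaches 566 to 648 CPM at 20 or more, while Thrb ends at 51.6 to 67.1 CPM.

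The same pattern appeared when L6-Syt6 neurons were grouped by their Crym UMIs after thinning to 10000 UMIs, again in bins chosen after the data were seen. Thrb was 142, 148, 98.4 and 127 CPM (unsorted replicates 1 to 3, then sorted) in neurons with 0 Crym UMIs, which made up 4.37% to 7.58% of cells. It was 62.3, 64.2, 61.4 and 67.2 CPM in neurons with 6 or more Crym UMIs, the lowest bin for Thrb in 4 of 4 libraries. Over the same bins, Thra went from 597, 669, 587 and 702 CPM to 692, 662, 682 and 810 CPM, and thus did not run in the same direction in all libraries. The share of neurons with 5 or more barcode UMIs, counted before thinning, was 12.3%, 19.7%, 19.05% and 26.8% at 0 Crym UMIs and 33.3%, 35.0%, 36.2% and 77.0% at 6 or more. Crym, Thrb and barcode count thus varied together within L6-Syt6, and these measures come from the same cells.

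**Figure D4:**
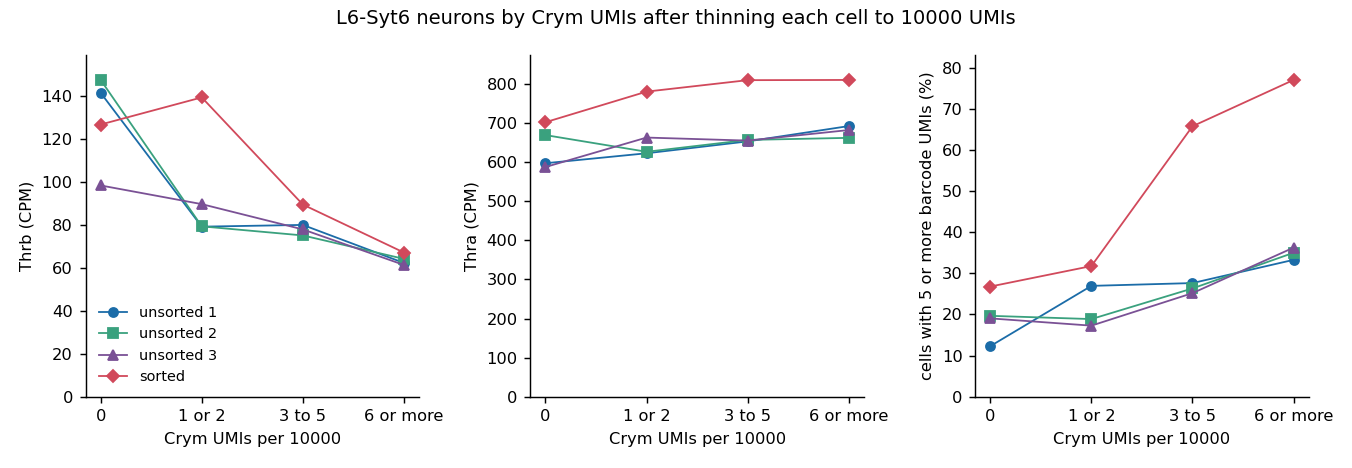
L6-Syt6 neurons grouped by Crym UMIs after thinning each cell to 10000 UMIs (horizontal axis), with Thrb and Thra in CPM and the percent of cells with 5 or more barcode UMIs, 1 line for each library. Thrb falls to 61.4 to 67.2 CPM in the bin of 6 or more Crym UMIs, and the barcode-high share there is 33.3% to 36.2% in unsorted libraries and 77.0% in the sorted one.

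In L6-Npy the direction of Crym was the opposite. Crym was 43.8, 57.6, 58.8 and 22.8 CPM in barcode-high neurons (unsorted replicates 1 to 3, then sorted) against 79.8, 80.1, 73.8 and 23.8 CPM in barcode-zero neurons. It was lower in 4 of 4 libraries, by little in the sorted one, where the sums were 71 and 28 UMIs. The fitted log2 difference was -0.47 (SE 0.12, adjusted p = 0.0203). Klf9 was higher in 4 of 4 libraries, with 215, 207, 188 and 375 CPM in barcode-high neurons against 181, 180, 175 and 253 CPM in barcode-zero neurons, a log2 difference of 0.31 (SE 0.07, adjusted p = 0.00729). The 4 excitatory neuron markers, none at 0, summed to 4684 to 4807 CPM in barcode-high and 4292 to 4570 CPM in barcode-zero L6-Npy neurons, higher in 4 of 4 libraries, and their part in these values was not tested. Thra (-0.03, SE 0.04, adjusted p = 0.859) and Thrb (0.03, SE 0.09, adjusted p = 0.944) did not pass. These were 2 of 4 tested members, where 1.56% of 10365 genes passed. DESeq2 gave neither call (adjusted p = 1.00 for both), nor did the fit without the library block, leaving out unsorted replicate 1, 2 or 3 ended that of Crym (adjusted p = 0.324, 0.0728 and 0.106) and leaving out the sorted library ended that of Klf9 (0.19, adjusted p = 0.258). After thinning, Crym was at -0.72 (adjusted p = 0.00762) and Klf9 no longer passed (0.30, adjusted p = 0.0944). Over 10 alternatives, adjusted p ran from 0.00694 to 1.00 for Crym and from 7.29e-05 to 1.00 for Klf9.

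Across the barcode bins of L6-Npy, Crym was 79.8, 80.1 and 73.8 CPM at 0 barcode UMIs in unsorted replicates 1 to 3 and 52.0, 61.0 and 48.1 CPM already at 1 to 4. At 20 or more it was 48.3, 52.7 and 64.3 CPM. In the sorted library it was 23.8, 34.6, 25.0 and 9.22 CPM from the lowest to the highest bin, the last from 4 UMIs. Crym was thus lower at 1 to 4 than at 0 barcode UMIs in the 3 unsorted libraries and higher in the sorted one. Klf9 was 233, 264, 215 and 475 CPM at 20 or more, its highest bin in 4 of 4 libraries.

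No member passed in the other 4 subtypes by edgeR or DESeq2. In L5-S100b, where 5.98% of 11477 genes passed, Crym was 85.2, 87.9, 96.2 and 63.5 CPM in barcode-high neurons against 75.7, 60.5, 67.7 and 68.1 CPM in barcode-zero neurons, with a log2 difference of 0.33 (SE 0.10, adjusted p = 0.0591). It was higher in 3 of 3 unsorted libraries and lower in the sorted library, and without the sorted library it passed at 0.42 (adjusted p = 0.0142), as did Thra at -0.17 (adjusted p = 0.0383). It also passed after thinning (0.63, adjusted p = 0.0193) and without the filter on low counts (0.37, adjusted p = 0.0145). Over 10 alternatives, adjusted p there ran from 0.0142 to 0.584 for Crym and from 0.0383 to 0.783 for Thra. The 4 excitatory neuron markers, none at 0, summed to 5422 to 5761 CPM in barcode-high and 3786 to 4463 CPM in barcode-zero L5-S100b neurons, and their part in these values was not tested. In L2/3-Rorb (0.309% of 10038 genes passed), L2/3-Calb1 (0.216% of 8340) and L5-Bcl6 (0.0914% of 8752), the 4 tested members had adjusted p of 0.611 to 1.00, and the normal 95% interval for Crym was -0.17 to 0.18 in L2/3-Rorb, -0.33 to 0.32 in L2/3-Calb1 and -0.07 to 0.28 in L5-Bcl6. L2/3-Calb1 and L5-Bcl6 were fitted on the 3 unsorted libraries, since the sorted library had fewer than 10 neurons in a group.

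Differences between subtypes in the barcode contrast were tested in a joint fit of the 4 subtypes with all 4 libraries. The log2 difference of Crym in L6-Npy was 0.89 below that in L6-Syt6 (L6-Npy minus L6-Syt6 -0.89, SE 0.16, adjusted p = 0.00084), where 3.36% of 12081 genes passed. It was also below that in L5-S100b (L5-S100b minus L6-Npy 0.80, SE 0.20, adjusted p = 0.0270, with 1.13% of genes passing). For Thrb, L6-Syt6 stood apart from each of the other 3 subtypes. The difference was 0.53 for L2/3-Rorb minus L6-Syt6 (SE 0.10, adjusted p = 0.0021, 1.47% of genes passing), 0.51 for L5-S100b minus L6-Syt6 (SE 0.09, adjusted p = 0.00032, 6.7% passing) and 0.53 for L6-Npy minus L6-Syt6 (SE 0.11, adjusted p = 0.0042). Left out in turn, no single library ended these calls except for L5-S100b minus L6-Npy, which had adjusted p of 0.191, 0.259 and 0.156 without unsorted replicate 1, 2 and 3 and 7.97e-05 without the sorted library. Over these 4 fits, L6-Npy minus L6-Syt6 for Crym ran from -0.99 to -0.80 (adjusted p from 5.05e-06 to 0.0207). No other pair passed for a member, including those of L2/3-Rorb with L5-S100b (0.695% of genes passing) and with L6-Npy (0.0166%), and Klf9 in L6-Npy minus L6-Syt6 gave 0.25 (SE 0.09, adjusted p = 0.144).

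Other genes of thyroid hormone transport and action were taken from a list of 23. In L6-Syt6, 19 were tested, 1 passed as higher and 2 as lower in barcode-high neurons, where 7.28% of all genes passed. Slc3a2, the heavy chain of the transporters formed with Slc7a5 and Slc7a8, was higher (78.6 ± 12.5 against 64.3 ± 11.0 CPM, SD, n = 4, log2 difference 0.32, adjusted p = 0.0185). Camk4, a calcium-dependent kinase gene known as T3-responsive, was lower (200 ± 32.9 against 249 ± 59.4 CPM, -0.25, adjusted p = 0.0178). Mbp, a myelin gene known as T3-responsive in oligodendrocytes, was also lower (20.3 ± 2.68 against 26.6 ± 5.31 CPM, -0.37, adjusted p = 0.0371). DESeq2 also gave the calls of Slc3a2 and Camk4 but not that of Mbp (adjusted p = 0.119). The oligodendrocyte markers Mog and Mag summed to 0.297 to 1.53 CPM in barcode-high and 0 to 1.69 CPM in barcode-zero L6-Syt6 neurons, neither at 0 over the libraries, and their part in the Mbp value was not tested. The list's median log2 difference was -0.04, against -0.01 for all genes tested.

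In L5-S100b, 18 of the 23 were tested, 1 passed as higher and 1 as lower, where 5.98% of all genes passed. DESeq2 gave neither call (adjusted p = 0.241 for Dio3 and 0.0793 for Camk4). Dio3, the deiodinase that inactivates T3, was lower in 3 of 4 libraries but rested on 62 barcode-high and 25 barcode-zero UMIs (log2 difference -1.61, adjusted p = 0.0318). Camk4 was higher, the reverse of L6-Syt6 (314 ± 40.2 against 268 ± 42.4 CPM, 0.26, adjusted p = 0.00561), and L5-S100b minus L6-Syt6 gave 0.51 in the joint fit (SE 0.08, adjusted p = 1.35e-05). In that fit Camk4 also passed for L2/3-Rorb minus L6-Syt6 (0.32, SE 0.08, adjusted p = 0.0271) and L6-Npy minus L6-Syt6 (0.36, SE 0.09, adjusted p = 0.0203). Mbp passed for L5-S100b minus L6-Syt6 (0.44, SE 0.11, adjusted p = 0.0108). In L2/3-Calb1, Nrgn, the T3-responsive neurogranin gene, was higher in 3 of 3 libraries (2443 ± 161 against 1689 ± 114 CPM, SD, n = 3, 0.54, adjusted p = 4.14e-05) and the other 14 tested did not pass, where 0.216% of all genes passed. Nrgn also passed with DESeq2 (0.54, adjusted p = 5.03e-05). The 4 excitatory neuron markers summed to 4183 to 4381 CPM in barcode-high and 3916 to 4173 CPM in barcode-zero L2/3-Calb1 neurons. Their sum was higher in 3 of 3 libraries, with none at 0, and their part in the Nrgn value was not tested. None of 17 passed in L2/3-Rorb, of 17 in L5-Bcl6 or of 16 in L6-Npy by edgeR or DESeq2.

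Sorted neurons showed a different balance of members, as values of 1 library with no replicate. Klf9 was 1.62 to 1.93 times its unsorted mean and above every unsorted library in 7 of 7 subtypes, for example 485 CPM against 292 ± 3.12 CPM in L6-Syt6. Thra was 1.10 to 1.21 times and Thrb 1.19 to 1.67 times the unsorted mean, also in 7 of 7. Crym was below every unsorted library in 6 of 7 subtypes, down to 0.432 times the unsorted mean in L5-Htr2c (4 sorted cells with 9 Crym UMIs in all) and 0.474 times in L6-Npy, and was above them in L6-Syt6. Among the 6701 genes with a mean of at least 20 CPM in L6-Syt6, 53.1% lay above and 35.6% below the unsorted range in the sorted library, so leaving that range was the rule for genes in general.

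Dio2 transcripts were found in astrocytes and Crym transcripts mainly in neurons. Dio2 was at 252, 170 and 257 CPM in astrocytes of unsorted replicates 1 to 3 against 0.148, 0.106 and 0.120 CPM in neurons. After thinning to 2000 UMIs, 31.1% to 38.9% of astrocytes and 0.0356% to 0.0805% of neurons had a Dio2 UMI, and neuronal UMIs this rare cannot be told apart from free RNA. Crym was at 46.1, 74.4 and 69.2 CPM in astrocytes against 333, 338 and 329 CPM in neurons. The Crym difference passed, with a log2 value (astrocytes minus neurons) of -2.64 (SE 0.12, adjusted p = 1.42e-12). For Dio2 the fitted log2 value was 10.53. Dio2 entered the fit only through its counts in astrocytes, so its passing adds nothing to the levels above. The value for Dio2 rests on 22 neuronal UMIs. Of 15327 genes tested, 67.3% passed, so a passing gene is common in this contrast.

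Much of the astrocytic Crym came from cells with transcripts of other types. The astrocyte rule also took 48, 48 and 53 cells with a UMI of Slc17a7, C1qa, Cldn5 or Mog, and these held 35 of 41, 65 of 67 and 65 of 69 Crym UMIs. Without them Crym was at 4.66 to 12.2 CPM (log2 difference -5.56), Dio2 at 303 to 372 CPM, and the 6 astrocyte markers summed to 8286 to 9114 CPM against 22.8 to 25.8 CPM in neurons. Aqp4 and Gja1, which chose the astrocytes, are among these 6, so their sum is no independent check of cell type. The 3 endothelial markers went from 1623 to 2129 CPM down to 3.81 to 32.5 CPM. The 4 excitatory markers went from 631 to 1241 CPM down to 79.3 to 126 CPM, against 5130 to 5203 CPM in neurons. In each list 1 marker, Cldn5 or Slc17a7, was at 0 because cells with its UMIs had been left out, so part of the drop was fixed by that rule. The 2 oligodendrocyte precursor markers did not fall, with 44.1 to 81.0 CPM before, 61.0 to 120 CPM after and 1.45 to 1.53 CPM in neurons.

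The receptor genes were lower in astrocytes, and Klf9 and Hr did not pass. Thra was 246 ± 39.7 CPM in astrocytes and 652 ± 3.45 CPM in neurons (SD, n = 3, log2 difference -1.65, adjusted p = 3.24e-11), and Thrb 46.4 ± 8.23 and 103 ± 3.63 CPM (-1.39, adjusted p = 3.27e-08). Klf9 was 291 ± 11.9 CPM in astrocytes and 244 ± 1.19 CPM in neurons. Its fitted log2 difference was 0.01 (SE 0.08, adjusted p = 0.913, normal 95% interval -0.15 to 0.18), since the TMM scaling factors lowered all log2 differences in this contrast by a median of 0.23 relative to plain CPM. It passed at 0.21 (adjusted p = 0.0469) after thinning and was at -0.08 (adjusted p = 0.551) without the filter on low counts, in a range of adjusted p of 0.0469 to 0.949 over 9 alternatives. Hr had 5 UMIs in all astrocytes and did not pass (0.94, SE 0.84, adjusted p = 0.336).

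**Figure D5:**
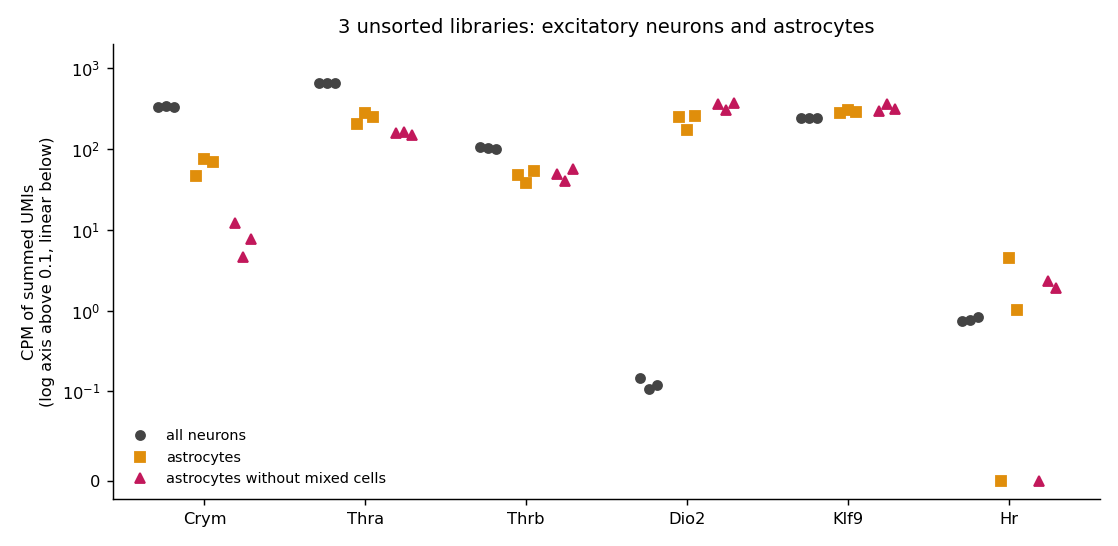
Level of the 6 members (vertical axis, CPM of summed UMIs, logarithmic above 0.1 and linear below) in all excitatory neurons, in astrocytes and in astrocytes without cells that carry a Slc17a7, C1qa, Cldn5 or Mog UMI, 1 point for each of the 3 unsorted libraries. Dio2 is at 170 to 257 CPM in astrocytes and 0.106 to 0.148 CPM in neurons, and Crym drops from 46.1 to 74.4 CPM to 4.66 to 12.2 CPM when the mixed cells are left out.

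Of the list of 23, 21 were tested between astrocytes and neurons, 4 passed as higher and 10 as lower in astrocytes, near the 67.3% of all genes that passed, with a median log2 difference of -0.37 against -0.19 for all genes. In the same sums the 3 endothelial markers stood at 1623 to 2129 CPM in astrocytes and 7.63 to 8.43 CPM in neurons. Slco1c1, the T4 transporter OATP1C1, was 525 ± 43.1 CPM in astrocytes and 0.360 ± 0.0317 CPM in neurons (log2 difference 10.25, resting on 63 neuronal UMIs). Slc7a5 (101 ± 14.8 against 21.4 ± 0.982 CPM) and Slc3a2 (438 ± 45.2 against 67.0 ± 2.44 CPM) were also higher in astrocytes, and Slc7a8 was lower (19.8 ± 7.89 against 88.9 ± 2.10 CPM). Without cells that had a UMI of Slc17a7, C1qa, Cldn5 or Mog, Slc7a5 was at 22.3 ± 2.91 CPM in astrocytes and no longer passed (log2 difference -0.19, adjusted p = 0.544), while Slco1c1 (521 ± 37.8 CPM), Slc3a2 (485 ± 16.9 CPM) and Slc7a8 (4.72 ± 2.07 CPM) passed in the same direction. Mbp was higher as well (139 ± 68.8 against 42.8 ± 0.691 CPM), where Mog and Mag summed to 26.1 to 71.1 CPM in astrocytes against 1.047 to 1.31 CPM in neurons. Without the mixed cells Mbp was at 38.8 ± 26.3 CPM and did not pass (-0.42, adjusted p = 0.0893). Dio3 was at 0 UMIs in the astrocytes and 489 UMIs in neurons (2.78 ± 0.386 CPM). Nrgn and Camk4 were lower in astrocytes (log2 differences -2.74 and -2.40), as were Slc16a10, Rxrb, Rxrg, Ncor1, Tbl1xr1 and Ncoa2, the last in 2 of 3 libraries. Tbl1xr1 (adjusted p = 0.194) and Ncoa2 (0.114) did not pass without the mixed cells, nor did Ncoa2 with DESeq2 (0.0955).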

How the data were processed

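Chromium 3′ v3 libraries were processed by the authors with Cell Ranger 3.0.2 against mm10 with the viral barcodes added, and the deposited matrices hold raw UMI counts. The deposited metadata give subtype labels, counts per cell and the percent of mitochondrial UMIs for the excitatory neurons kept by the authors. For astrocytes, cells needed 500 to 8000 genes, between 1000 and 60000 UMIs, and a mitochondrial share under 20 percent. Counts were summed per library and group, without the viral feature (0.0319% to 0.0384% of UMIs), and groups needed 10 cells. The feature named barcode was taken as the sum over the 5 viruses, which was not tested. No doublet caller was run.

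Sums were tested with edgeR 4.0.16 (TMM, filterByExpr, quasi-likelihood F test, two-sided) in R 4.3.3, with DESeq2 1.42.0 as an alternative. The library pairs both groups because they come from the same animals, and deviations of its groups from the group means correlated at -0.05 to 0.85, above 0.1 in 17 of 25 cases. Fits were tested on simulated counts with no library effect beyond library size, so that check does not cover a library that deviates from the others. Members, gene lists and comparisons were chosen with earlier results of these data known. Genes named were the 6 members, those of the list that passed, and the 3 most correlated with each member. Normal 95% intervals come from the fitted SE, and bars by barcode bin cover counting error only. Results of some listed genes are not reported here.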

Additional observations from a re-analysis of the deposited data

Results flagged for a closer look

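In 3 of 16 sets of 4 libraries checked, 1 library lay far from the other 3, where chance flags about 1 set in 20. The log2 ratio of Crym between barcode-high and barcode-zero L6-Syt6 neurons was 0.8155 in the sorted library and 0.2106 to 0.2702 in the unsorted ones. That of Thra in L6-Syt6 was 0.07996 in the sorted library against -0.02069 to -0.01554. That of Thrb in L2/3-Rorb was 0.08004 in unsorted replicate 2 against -0.00129 to 0.004677, a small spread in all 4.

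The barcode contrast differed between subtypes in the joint fit for Crym and Thrb. For Crym the differences were -0.886 (L6-Npy minus L6-Syt6) and 0.7965 (L5-S100b minus L6-Npy). For Thrb they were 0.5274 (L2/3-Rorb minus L6-Syt6), 0.5144 (L5-S100b minus L6-Syt6) and 0.533 (L6-Npy minus L6-Syt6). Without the sorted library these were -0.81 and 0.96 for Crym and 0.46, 0.46 and 0.47 for Thrb, in the same order.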

How the results depend on the processing

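Of 467 values recomputed under alternatives, 363 kept their direction and side of the threshold or moved by less than the replicate spread. Log2 differences of members that had not passed changed sign in these cases, where the cause was not tested. With neurons of 1 or more barcode UMIs as positive, Thrb was -0.080 in L2/3-Calb1 and -0.057 in L6-Npy. After thinning, L2/3-Calb1 had Crym at 0.072 and Thrb at -0.14, L2/3-Rorb had Thra at -0.013 and Thrb at -0.10, and L6-Npy had Thrb at -0.089. Without the library block, Crym in L2/3-Rorb was -0.0091. With 1 library left out, Crym ran from -0.15 to 0.10 in L2/3-Calb1, from -0.092 to 0.074 in L2/3-Rorb and from -0.0025 to 0.20 in L5-Bcl6, Thra from -0.011 to 0.13 in L2/3-Rorb, Thrb from -0.012 to 0.19 in L5-Bcl6, and Hr in astrocytes from -0.80 to 1.52. Klf9 in astrocytes was -0.081 without the filter.

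The number of members past the threshold in L5-S100b (0) became 1 without the filter and 1 after thinning, and 0 to 2 with 1 library left out. In L6-Npy (2) it became 0 with DESeq2, 1 after thinning, 0 without the library block and 1 to 1 with 1 library left out. In L6-Syt6 (2) it became 1 with 1 or more barcode UMIs, 0 without the library block, and 0 to 3 with 1 library left out. Levels in CPM moved with the scale. Crym in L6-Syt6 was 538 with TMM-scaled totals, 475 after thinning and 468 as a mean over cells. Thra in L6-Npy was 1024, 999.7 and 1002 in the same order. Thrb in L5-Htr2c was 208 with TMM and 222 after thinning, and Klf9 in L6-Syt6 was 323 and 288. Highest and lowest subtypes of Crym, Thra, Thrb and Klf9 were the same in the unsorted libraries on all 4 scales.

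Over all genes, 948 passed in L6-Syt6 against 614 with DESeq2, 80 with 1 or more barcode UMIs, 87 without the block and 28 to 2748 with 1 library left out. L5-S100b had 686 against 252 with DESeq2, 298 after thinning, 56 without the block and 317 to 633 with 1 library left out. L6-Npy had 162 against 17 with DESeq2, 72 after thinning, 0 without the block (406 at an unadjusted p under 0.05) and 74 to 155 with 1 library left out. L2/3-Calb1 had 18 against 2 with DESeq2, 39 without the filter, 6 with 1 or more barcode UMIs and 12 to 28 with 1 library left out. L2/3-Rorb had 31 against 1, 66 and 12, with 9 after thinning, 0 without the block and 3 to 43 with 1 library left out, the 3 without unsorted replicate 1. L5-Bcl6 had 8 against 0, 29 and 0, with 1 after thinning and 6, 4 and 38 without unsorted replicate 1, 2 and 3. In the joint fit, leaving out 1 library, an alternative chosen after seeing the data, moved L5-S100b minus L6-Npy for Crym within 0.72 to 0.96. Dio2 and Hr did not pass the filter on low counts in the 6 barcode comparisons, and L5-Htr2c had fewer than 10 barcode-high neurons in each library.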
